A study of Mus musculus with 5 samples.

Results

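Effector Th1 arrays (3) were set against resting CD4 T cell arrays (2), to find the genes whose signals in every effector array lay on the same side of both resting signals. All cells came from the spleen of BALB/c mice, and total RNA was hybridised to Affymetrix mouse expression arrays. The effector class held 3 arrays of cultured CD4 T cells, named control, Rap and TOFA effector Th1 cells. Per the labels, the Th1 culture lasted 5 days, with IL-2 at 15 ng/ml and IL-12 at 10 ng/ml. TOFA inhibits acetyl-CoA carboxylase, the enzyme of the first committed step of fatty acid synthesis. The label Rap is not expanded, and no dose of either agent is given. The resting class held 2 arrays of primary cells, namely naive CD4 T cells and memory Th1 cells, whose source names do not mention culture, although the same culture protocol is attached to all 5 samples. "Resting" is used here as a name for these arrays, and how the memory cells were made is not stated in the labels. All 5 arrays of the series were used, with 1 array per condition. No genotype beyond the strain, and no age or sex of the mice, is given. Culture with cytokines separates the classes as completely as the effector state does, so their effects cannot be told apart.

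A resting T cell is small, divides rarely, and keeps transcription factors such as KLF2 and FOXO1 active, which sustain receptors for homing through lymph nodes and for survival signals. Antigen and IL-2 drive such a cell into rapid division. Glucose use, lipid synthesis and nucleotide supply then rise, the KLF2 program is shut down, and under IL-12 the cell takes up the Th1 program of interferon-gamma and cytotoxic granules. Memory cells return to rest but keep some effector genes at a raised level.

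For each gene the lowest effector signal was divided by the highest resting signal, or the reverse for genes that were lower in effectors. This ratio is the smallest of the 6 folds between an effector and a resting array, and is called the smallest fold below. A gene counted as higher or lower when the smallest fold was at least 2. Signals are on the authors' linear scale after quantile normalization, and signals under the 40th percentile, 42.8, were treated as equal to that floor. A smallest fold against signals under the floor is a lower bound, written as "at least". Members were chosen by these same values, so the folds are a description and carry no test. The arrays of a class differ in treatment or history and are not replicates. Even taken as such, an exact permutation of 3 against 2 arrays could give no one-sided p below 0.1. Precision is limited by the number of arrays, and no p-value, SD or SE between replicates can be given. The spread available is the range of log2 signals within each class.

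Of 14406 genes compared, 865 (6.0%) were at least 2-fold higher and 425 (2.95%) at least 2-fold lower in all 6 pairs. The higher genes included genes of the cell cycle, of glycolysis, of sterol synthesis and of cytokine signalling, and the lower genes included transcription factors and receptors of resting T cells, as well as immunoglobulin and neutrophil genes. Signals of the classes did not overlap, at any fold, for 3641 genes on the higher side (25.3%) and 3019 on the lower side (21.0%), and overlapped for 7746. The smallest fold reached at least 4 for 327 higher and 87 lower genes, at least 8 for 169 and 20, and at least 16 for 74 and 9. It was a lower bound for 87 higher and 52 lower genes. Over all genes compared, the median range of log2 signals was 0.37 within the effector class and 0.33 within the resting class. Where a gene had other probe sets above the floor, all of its probe sets differed the same way by class means for 414 of 450 higher and 195 of 234 lower genes. Just inside the threshold lay Armcx3 at 2.002-fold higher and Ptk2b at 2.006-fold lower, and just outside it Wdr60 at 1.997-fold and Cebpa at 1.998-fold. On the values as deposited, without quantile normalization, the split was 701 higher (56.6% of those counted) and 537 lower, against 67.1% higher in the normalized values, and the median class difference over all genes was -0.12 against 0.02 on the log2 scale.

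**Figure D1:**
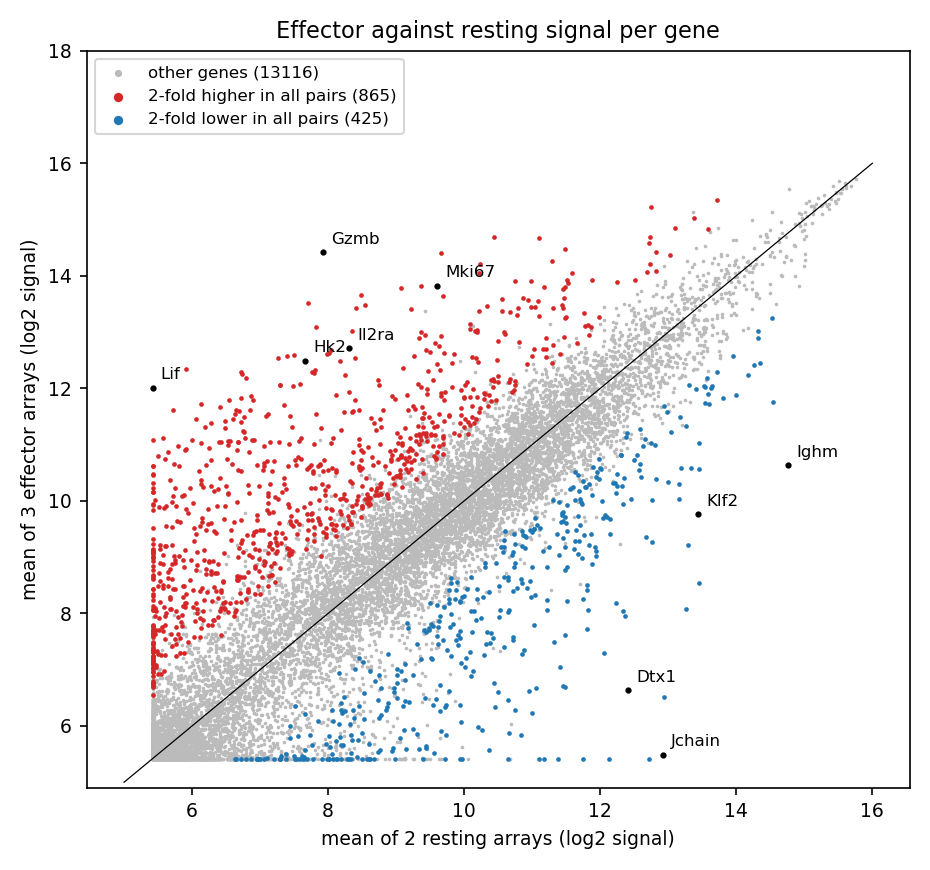
Mean log2 signal of the 3 effector arrays (y axis) against that of the 2 resting arrays (x axis), 1 point per gene, with 865 genes at least 2-fold higher in all 6 pairs in red, 425 at least 2-fold lower in blue and the other genes in grey. Black points are named. The line marks equal signal, and points along the left or lower edge are at the floor in that class.

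The arrays of the effector class were closer to each other than the resting arrays were. Between pairs of effector arrays, 590 to 739 genes were at least 2-fold apart (4.10% to 5.13%), against 2142 between naive and memory cells (14.9%) and 3157 to 3751 between the classes (21.9% to 26.0%). Median signals as deposited ran from 63.1 to 99.5, the highest in memory cells. The ratio of 3' to 5' control probe sets was 0.832 to 0.918 for Gapdh and 1.26 to 1.45 for the actin control. The memory array stood apart by its markers of other spleen cells. The 19 macrophage and monocyte markers compared had a summed signal of 200983 there, 3822 in naive cells and 481 to 1094 in effectors. C1qa, a complement gene of macrophages, had a signal of 16507 in memory cells and under 42.8 in the other 4 arrays. The 19 B cell and plasma cell markers summed to 50734 in naive and 108494 in memory cells against 3512 to 4986 in effectors. Of these sums Ighm alone gave 27366 in naive and 28105 in memory cells and 1352 to 1814 in effectors. The 12 neutrophil markers summed to 6215 and 13644 against 497 to 793, mostly from S100a8 and S100a9 in the resting arrays. The 7 erythroid markers summed to 379 and 3043 against 125 to 168, and the 12 dendritic cell markers to 4776 and 28627 against 6854 to 8797. The dendritic memory sum came mostly from the MHC class II genes H2-Eb1 (14177) and H2-Ab1 (10909). The effector sums came mostly from Batf3 (3674 to 4919), which is also induced in activated T cells. The 11 CD8 T and NK cell markers summed to 2939 in naive and 26944 in memory cells against 3149 to 5695. Most of that memory sum came from Tyrobp (15384) and Fcgr3 (7524), the latter also on the macrophage list. The list of CD4 T cell identity genes had sums of 93491 and 67919 in the resting arrays and 61861 to 68983 in effectors. Most of its 12 members, such as Cd3d and Cd3g, are genes of T cells in general. Cd4 itself measured 896 in naive and 481 in memory cells and 523 to 626 in effectors. None of the 12 was 2-fold apart in all pairs, and 3 were at least 2-fold lower without the memory array. Fewer cells of a type and less RNA of that type per cell cannot be told apart in these bulk samples. At the floor in effectors were 13 to 15 of the 19 macrophage markers, 9 or 10 of the 12 neutrophil, 6 of the 7 erythroid and 3 or 4 of the 19 B cell markers. Where leaving out an array moves a count of list members by at least 3 genes, that count is given here or below. Such counts stand beside those of all genes with the same array left out. Without the naive array 1203 of 14083 genes were higher and 1387 lower, and without the memory array 1391 and 895 of 13909. Without the control array they were 933 and 484 of 14102, without Rap 1029 and 501 of 14162, and without TOFA 941 and 513 of 14148.

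**Figure D2:**
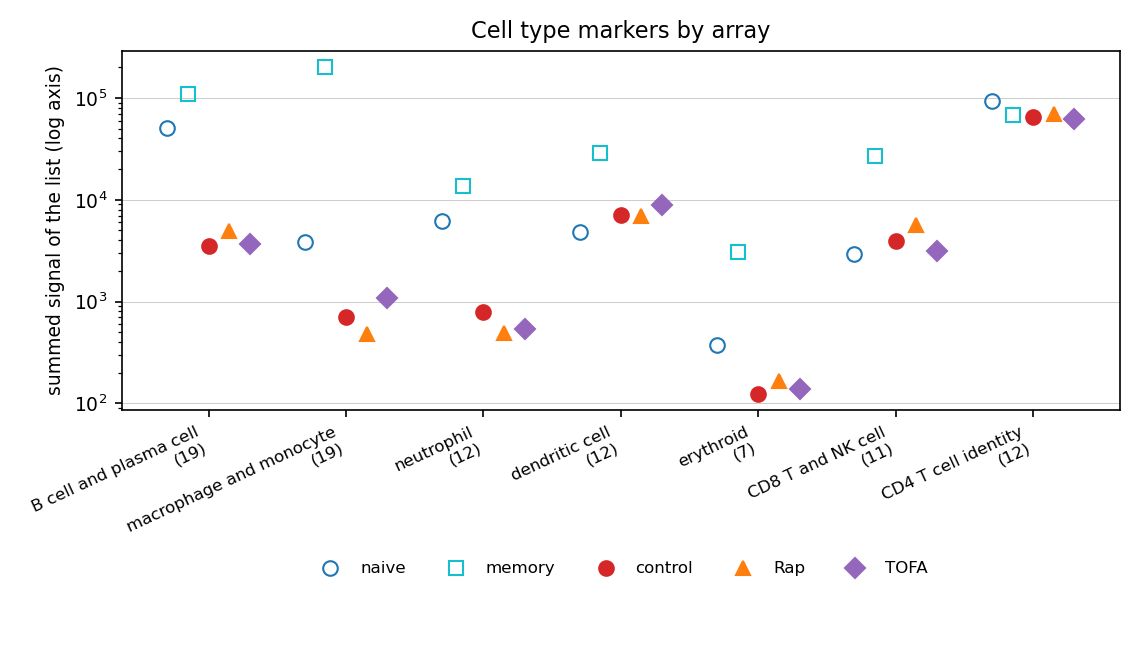
Summed signal (log axis) of the compared markers of 6 other cell types and of CD4 T cell identity genes on each array, with the number of markers in brackets. Macrophage and monocyte markers sum to 200983 in memory cells and at most 3822 elsewhere. Sums of the CD4 T cell identity list, mostly genes of T cells in general, lie between 61861 and 93491.

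The 4 genes taken as marks of the effector and resting states separated the classes. Mki67, a protein of dividing cells, had signals of 558 in naive and 1087 in memory cells, and 14724 in control, 15779.7 in Rap and 13175 in TOFA effectors. The lowest effector signal was 12.1-fold above the highest resting one, and the effector signals lay within a narrow band. Hk2, the inducible hexokinase that traps glucose in the cell, measured 97.7 in naive and 414 in memory cells against 5816 in control, 5939 in Rap and 5565 in TOFA effectors, a smallest fold of 13.4-fold. Memory cells lay between naive and effector cells for both genes, nearer to naive cells. Il2ra, the alpha chain of the IL-2 receptor, measured 423 in naive and 237 in memory cells against 4753 in control, 8966 in Rap and 7134 in TOFA effectors (11.2-fold higher), with the lowest effector signal in control cells. Klf2, the transcription factor of quiescence and lymph node homing, went the other way, with 14177 in naive and 8714 in memory cells against 933 in control, 1174 in Rap and 599 in TOFA effectors, and was 7.42-fold lower.

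The 14 genes furthest higher included Bub1, Bub1b, Aurkb, Birc5 and Cdk1 of the mitosis list and Cdc6 of the replication list, described below with their lists. Lif, a cytokine of the IL-6 family, was furthest apart, at least 67.3-fold higher, with signals under 42.8 in both resting arrays and of 2879.8 in control, 6022 in Rap and 4059 in TOFA effectors. Gzmb, the cytotoxic protease granzyme B, followed at 52.7-fold, with 264 in naive and 222 in memory cells against 28401 in control, 26464 in Rap and 13924 in TOFA effectors. All 3 effector signals of Gzmb were far above both resting signals, although the TOFA signal was the lowest of the effectors. Enah, a regulator of actin filaments, was 46.5-fold higher, with under 42.8 and 85.3 in naive and memory cells and 5749, 6231 and 3967 in control, Rap and TOFA effectors. Its 5 other probe sets differed by a median of 2.76 on the log2 scale between the class means, below the difference on the brightest probe set. Ak4, a mitochondrial adenylate kinase, was at least 32.1-fold higher, with 1963 in control, 1373 in Rap and 1436 in TOFA effectors. Cetn4, a centrin, was 34.7-fold higher, Lrr1 at least 32.3-fold, Shcbp1 30.3-fold and Rad51ap1, a factor of homologous recombination, 30.1-fold. The Rap array was the highest effector for Lif and Cetn4, and the control array for Gzmb and Ak4.

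**Figure D3:**
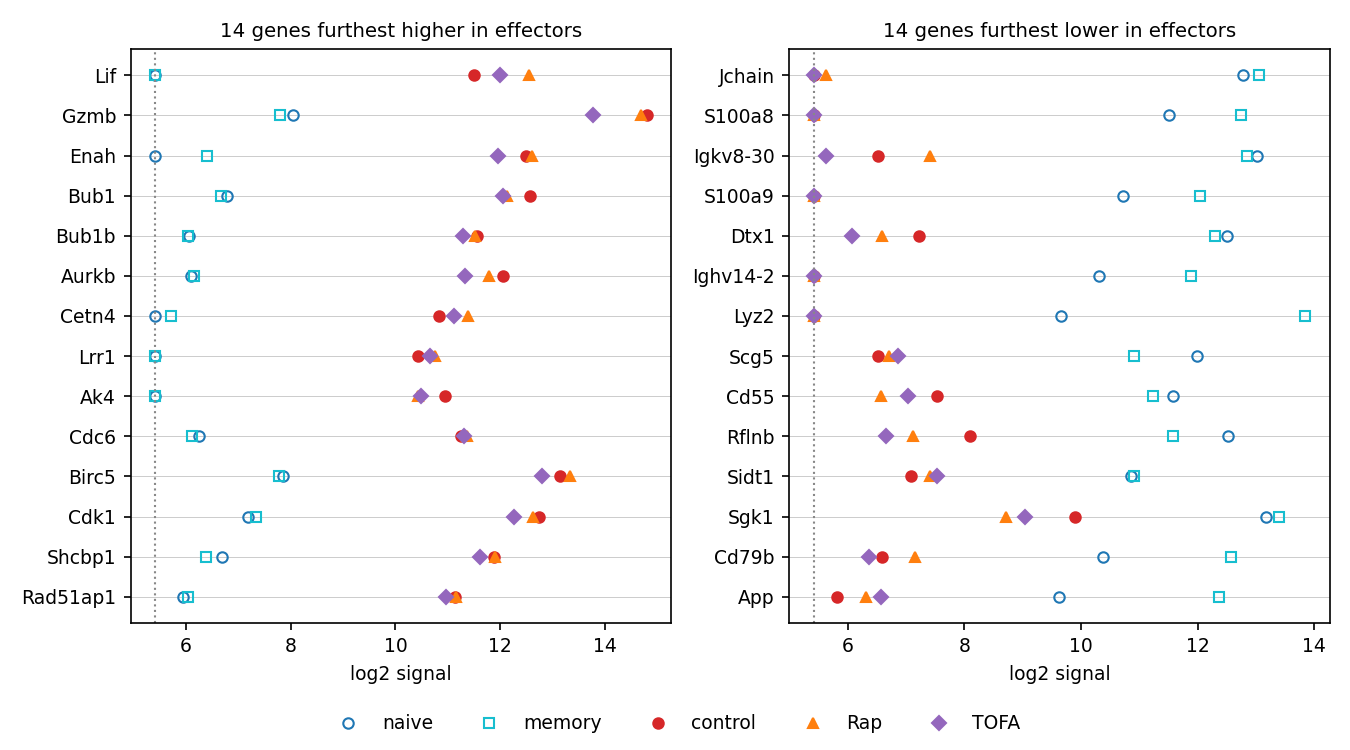
Log2 signal on each of the 5 arrays for the 14 genes furthest higher (left) and the 14 furthest lower (right) in effectors by their smallest fold, 1 marker per array, with open symbols for resting and filled symbols for effector arrays and a dotted line at the floor of 42.8. In every row the filled and open symbols are apart, from 30.1-fold for Rad51ap1 to 67.3-fold for Lif on the left, and from 8.31-fold for App to 142-fold for Jchain on the right.

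The whole mitosis list, as far as it was compared, was higher in every effector array. All 31 members compared passed 2-fold in all 6 pairs, against 6.0% of all genes, with smallest folds from 3.13 to 38.6 (median 19.2). Their median class difference was 4.66 on the log2 scale, against 0.02 over all genes. Bub1, a kinase of the spindle checkpoint, had signals of 111 in naive and 102 in memory cells against 6069 in control, 4475 in Rap and 4269.7 in TOFA effectors (38.6-fold). Its partner Bub1b measured 66.4 and 66.3 in naive and memory cells, near the floor, against 3024, 2927 and 2496 in control, Rap and TOFA effectors (37.6-fold). Aurkb, the kinase of the chromosomal passenger complex, was 35.7-fold higher, and Birc5 (survivin), a member of the same complex, 30.5-fold, with 233 and 219 against 8989, 10262 and 7105. Cdk1, the kinase that drives entry into mitosis, measured 146 in naive and 162 in memory cells and 6873 in control, 6311 in Rap and 4944 in TOFA effectors, a smallest fold of 30.4-fold. Memory differed from naive cells by a median of -0.01 in this list, with 14 of the 31 genes higher in memory cells, and by at least 2-fold for 3 genes. TOFA signals lay below control for all 31 members (median -0.41) and Rap signals for 18 (median -0.08), but in none of them by 2-fold. Over all 14406 genes TOFA signals lay below control for 6248 and Rap signals for 6488, for comparison here and in the lists below.

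Genes of DNA replication were higher as completely, by smaller folds. All of its 33 members compared were at least 2-fold higher in all pairs, with smallest folds from 2.19 to 31.8 (median 5.84) and a median class difference of 2.80. Cdc6, which loads the replicative helicase onto origins, measured 76.3 in naive and 69.8 in memory cells against 2426 in control, 2647 in Rap and 2521 in TOFA effectors (31.8-fold). Dtl, a substrate receptor of the ubiquitin ligase that degrades the licensing factor CDT1, was 18.6-fold higher, and Orc1, a subunit of the origin recognition complex, 17.3-fold, with 50.7 and 45.3 against 1072, 876 and 882. Uhrf1, which guides maintenance methylation of newly copied DNA, stood at 185 and 272 against 5095, 5945 and 4443 (16.3-fold). In contrast to mitosis genes, Rap signals lay above control for most of these genes and below it for only 7 (median 0.13), and TOFA signals lay below control for 24 (median -0.12). Tyms, thymidylate synthase, was 5.59-fold higher, or 1.75-fold when its probe sets were averaged.

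The G1 list was mixed, with 10 of 23 members higher and 2 lower (median 1.02), against 6.0% and 2.95% of all genes. Ccne2, an E cyclin that activates CDK2, measured 77.5 in naive and 77.2 in memory cells against 1669.9 in control, 2181 in Rap and 1334 in TOFA effectors (17.2-fold). E2f8, a repressor of the E2F family induced in S phase, was 15.6-fold higher. Cdkn1a, the CDK inhibitor p21, was also higher in every effector array, at 6143, 1307 and 4244 in control, Rap and TOFA cells against 61.5 and 118 in naive and memory cells (11.05-fold), with the Rap signal well under the other effectors. The lower members were the antiproliferative genes Btg2 (7.09-fold), with 9888 in naive and 8503 in memory cells against 1199.8 in control, 854 in Rap and 1119 in TOFA effectors, and Tob1. Ccnd1 and Rbl2 overlapped between the classes.

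The upstream sequence of some of these genes is shown because the genes were higher together and carry short motifs known from promoters of the cell cycle. Windows of 250 bases before the RefSeq gene start (build GRCm38.p6) were searched on both strands, 1 window per gene, for the CHR element TTTGAA and the CCAAT box in mitosis genes, and for an E2F site, GCGGGAA, in replication genes. A CCAAT box was found in 20 of 26 mitosis windows (76.9%), against 34.5% of all 27025 windows and 35.9% of those of all genes compared. The CHR letters were found in 7 of 26 (26.9%), against 16.3% and 10.9%. The E2F letters were found in 9 of 28 replication windows (32.1%), against 3.84% and 6.42%. Below, capitals mark the CHR letters and CCAAT boxes in Cdk1 and Ccnb2, an activating cyclin of CDK1, and the E2F letters in Dtl, 5′ to 3′ on the strand of the gene.
Cdk1, chr10:69352913-69353162, minus strand: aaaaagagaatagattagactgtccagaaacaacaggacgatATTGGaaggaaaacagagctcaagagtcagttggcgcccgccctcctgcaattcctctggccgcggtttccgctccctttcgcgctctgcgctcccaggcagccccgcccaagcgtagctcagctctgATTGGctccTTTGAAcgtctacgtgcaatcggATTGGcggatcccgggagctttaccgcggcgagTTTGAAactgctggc
Ccnb2, chr9:70421555-70421804, minus strand: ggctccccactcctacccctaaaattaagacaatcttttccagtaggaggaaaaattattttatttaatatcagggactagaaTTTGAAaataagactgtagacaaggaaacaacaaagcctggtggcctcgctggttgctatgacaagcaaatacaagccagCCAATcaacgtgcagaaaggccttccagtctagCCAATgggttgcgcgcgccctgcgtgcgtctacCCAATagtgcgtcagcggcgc
Dtl, chr1:191575545-191575794, minus strand: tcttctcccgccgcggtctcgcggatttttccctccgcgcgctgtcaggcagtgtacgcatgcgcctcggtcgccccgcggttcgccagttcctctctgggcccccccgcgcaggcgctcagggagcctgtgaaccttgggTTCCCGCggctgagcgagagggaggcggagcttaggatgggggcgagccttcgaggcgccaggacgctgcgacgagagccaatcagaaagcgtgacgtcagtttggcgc
In Cdk1 the CHR letters begin 71 and 15 bases before the gene start and CCAAT boxes, read on the other strand, 208, 80 and 48 bases before it. Ccnb2 has CCAAT boxes 87, 54 and 21 bases before its start and CHR letters 167 bases before it. In Dtl the E2F letters, on the other strand, begin 109 bases before the start. A match is a description of the letters and not of a bound site.

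Genes of glucose use were higher in all effector arrays for 14 of 17 glycolysis and lactate genes compared (median 2.33, smallest folds 2.32 to 20.6). Among all genes the share was 6.0%. The other members, Hk1, Pfkfb3 and Slc16a1, were on the higher side without overlap but under 2-fold. Aldoc, an aldolase, measured 97.6 in naive and 126 in memory cells against 9288 in control, 2601 in Rap and 4163 in TOFA effectors (20.6-fold), so that both inhibitor arrays lay well below control yet far above resting cells. Eno2, an enolase, was at least 16.7-fold higher, with the resting signals under 42.8 and 1665, 713 and 781 in control, Rap and TOFA effectors. Tpi1, triose phosphate isomerase, stood at 919 and 2114 in naive and memory cells against 28574, 24661 and 25923 (11.7-fold). Signals in Rap cells lay under control for 16 of the 17 genes (median -0.47) and in TOFA cells for 16 (median -0.19). Over all 14406 genes the counts were 6488 and 6248. The Hk2 signals given above did not share this order, with Rap the highest.

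The hypoxia list, whose members are targets or regulators of the HIF factors, had 12 of 19 members higher and none lower (median 2.63). Among all genes 6.0% were higher. Egln3, a prolyl hydroxylase that marks HIF for degradation, measured 147 in naive and 298 in memory cells against 17507 in control, 8579 in Rap and 10846 in TOFA effectors (28.8-fold). Bnip3, a mitophagy receptor of the BCL2 family, was 17.3-fold higher, with 226 and 568 against 16553, 9834 and 13412. Vegfa, the angiogenic growth factor, stood at under 42.8 and 69.97 against 905, 615 and 913 (8.79-fold), and Vldlr, a lipoprotein receptor, was at least 17.96-fold higher. Without the probe sets that can match several transcripts, Vldlr passed to 1.87-fold. Adm, Car9, Kdm3a and Selenbp1 overlapped between the classes. Rap signals were under control for 18 of 19 members (median -0.75) and TOFA signals for 17 (median -0.60).

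A hypoxia response element core, ACGTG, was found in 8 of 16 glycolysis windows and 10 of 18 hypoxia windows (55.6%), against 16.6% of all windows and 20.9% of those of genes compared. These letters also occur within the E-box CACGTG. The window of Hk2 is shown as that of a marker of the effector state which holds the letters, in capitals, beginning 226 and 52 bases before the gene start on the other strand.
Hk2, chr6:82774455-82774704, minus strand: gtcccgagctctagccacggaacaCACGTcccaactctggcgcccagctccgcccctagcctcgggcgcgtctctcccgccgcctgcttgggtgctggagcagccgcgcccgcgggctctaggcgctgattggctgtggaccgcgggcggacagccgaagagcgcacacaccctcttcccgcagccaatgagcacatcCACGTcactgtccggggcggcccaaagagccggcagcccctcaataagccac

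Cholesterol synthesis genes were higher for 10 of 19 members, with none lower, and 17 of 19 did not overlap (median 1.75, smallest folds 2.10 to 5.10). Among all genes 6.0% were higher, and 25.3% lay on the higher side without overlap. Fdps, farnesyl diphosphate synthase, measured 666 in naive and 722 in memory cells against 9834 in control, 3681 in Rap and 7775 in TOFA effectors (5.10-fold). Idi1, isopentenyl diphosphate isomerase, was 4.08-fold higher, Cyp51, lanosterol demethylase, 3.66-fold, and Sqle, squalene epoxidase, 3.51-fold. In all 4 genes the Rap array gave the lowest effector signal. Rap signals were under control for all 19 members (median -1.02), and without the Rap array 16 of 19 members were higher. Tm7sf2 and Dhcr7 overlapped between the classes.

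Of 20 fatty acid synthesis genes, 7 were higher and none lower (median 1.01), against 6.0% and 2.95% of all genes. Fads2, a desaturase of polyunsaturated fatty acids, measured 43.6 in naive and under 42.8 in memory cells against 1095 in control, 299 in Rap and 1186 in TOFA effectors (6.85-fold). Scd2, a stearoyl-CoA desaturase, stood at 1878 and 2574 in naive and memory cells against 33421, 15235 and 34467 in control, Rap and TOFA effectors (5.92-fold). Elovl6, which elongates palmitate, was 4.798-fold higher, and Hacd1, a dehydratase of the elongation cycle, 4.15-fold, its memory signal (196) above the naive one (52.3). Fasn, Acsl4 and Acaca were the other members higher in all pairs. Acaca, which encodes a carboxylase inhibited by TOFA, measured 325 in naive and 396 in memory cells and 835 in control, 815 in Rap and 856 in TOFA effectors (2.06-fold). The overlapping members were Acacb, Scd1, Elovl5, Acss2 and Thrsp. Without the Rap array or without the memory array the count was 10.

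Fatty acid oxidation and respiration genes were not 2-fold apart. None of 17 oxidation genes and none of 25 oxidative phosphorylation genes was 2-fold apart in all pairs (medians 0.24 and 0.24), against 6.0% of all genes higher and 2.95% lower. Without overlap, 15 respiration genes lay above and 2 below both resting arrays, and 7 and 5 oxidation genes, against 25.3% and 21.0% of all genes. Without the memory array 3 oxidation genes were higher. Acadl, a dehydrogenase of long chains, measured 1870.3 and 3332 in naive and memory cells against 7069, 4520.1 and 7023 in effectors, a smallest fold of 1.36-fold. Cpt1a, the transferase that admits fatty acids to mitochondria, was on the lower side without overlap, with 1812 in naive and 1880.1 in memory cells against 1028 in control, 779 in Rap and 1064 in TOFA effectors (1.70-fold). Decr1 and Acadm differed by smallest folds of 1.27-fold higher and 1.44-fold lower. In the respiratory chain, Cycs (cytochrome c) was on the higher side at 1.47-fold, Uqcrfs1 at 1.41-fold and Cox5b at 1.33-fold, and Sdha, a subunit of complex II, on the lower side at 1.41-fold.

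Genes of nucleotide synthesis and of serine and folate metabolism lay mostly above both resting arrays, by less than 2-fold for most. In the purine and pyrimidine list 12 of 16 members lay above both resting signals without overlap and none below (25.3% and 21.0% of all genes). Only Pfas was past 2-fold (median 0.81), near the 6.0% of all genes. With scaling to the 75th percentile 4 members were past 2-fold, without the naive array 5, and with an added constant none. Pfas, an enzyme of purine ring synthesis, measured 609 in naive and 531 in memory cells against 1261 in control, 1826 in Rap and 1501 in TOFA effectors (2.07-fold), next to Gmps at 1.95-fold, Paics at 1.86-fold and Umps at 1.81-fold. Of 10 serine and folate genes, 4 were higher (median 1.46), against 6.0% of all genes. Psat1, of serine synthesis, stood at 760.1 and 498 in naive and memory cells against 5809, 4358 and 8895 (5.73-fold), highest in TOFA cells. The mitochondrial folate enzymes Mthfd2 and Mthfd1l were 2.06-fold and 2.04-fold higher. Pfas and Mthfd2 were 1.85-fold and 1.98-fold on the values as deposited.

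Among 12 amino acid transporters only Slc7a3, a carrier of cationic amino acids, was past 2-fold (3.14-fold), and 9 overlapped. Among all genes 6.0% were higher, and 7746 of 14406 overlapped. Slc7a3 measured 61.2 in naive and under 42.8 in memory cells against 263 in control, 192 in Rap and 1720.1 in TOFA effectors, and with the floor at the 60th percentile its smallest fold was 1.29. Slc7a5, the leucine carrier, had 761 and 460.3 in resting and 1958, 1495 and 8389.7 in effector cells (1.97-fold), and Slc1a5, a glutamine carrier, 1.09-fold. Without the naive or without the Rap array, and with scaling to the 75th percentile, 2 transporters were past 2-fold. TOFA signals exceeded control in this list by a median of 1.31 and Rap signals by 0.01. The same order held for tRNA synthetases (medians 0.60 and -0.23). In that list 14 of 19 lay above resting cells without overlap (25.3% of all genes) and 1 was past 2-fold (6.0% of all genes). That member, Vars, was 2.28-fold higher (354 and 527 against 1202, 1235 and 1212), and 1.98-fold on the values as deposited. Gars stood at 1.73-fold, Kars at 1.64-fold and Eprs at 1.39-fold. With scaling to the 75th percentile 3 synthetases were past 2-fold, and without the naive or the Rap array 2.

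The MYC and ribosome biogenesis list had 3 of 21 members higher and 1 lower (median 0.34), against 6.0% and 2.95% of all genes. Myc itself, the growth-promoting transcription factor, measured 2385 in naive and 2329 in memory cells against 5062 in control, 8751 in Rap and 4872 in TOFA effectors (2.04-fold). Its partner Max stood at 118 and 225 against 898, 1749 and 1275 (3.996-fold), and Odc1, which starts polyamine synthesis, at 1741 and 3660.5 against 13324, 10673 and 9343 (2.55-fold). Mycn was 2.59-fold lower near the floor, and the classes overlapped when its probe sets were averaged. Of 24 proteasome genes 19 lay above resting cells without overlap (25.3% of all genes) and none was past 2-fold (median 0.41), led by Psmb2 at 1.73-fold, Psmd12 at 1.63-fold, Psma1 at 1.48-fold and Psma4 at 1.47-fold. With scaling to the 75th percentile 4 proteasome genes were past 2-fold (median 0.87), and without the memory array 2. Cytosolic ribosomal proteins were level, with none of 18 past 2-fold and a median of 0.05, which was -0.10 on the values as deposited. Rps6 and Rpl14 were 1.45-fold and 1.44-fold higher, and Rpl27 and Rpl6 1.10-fold and 1.08-fold.

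The list of IL-2, STAT5 and cytokine feedback genes also holds receptors for IL-4, IL-12 and IL-18 and the cytokines Lif and Osm. It had 13 of 21 members higher and none lower (median 1.85), against 6.0% and 2.95% of all genes. Beside Lif and Il2ra, Socs2, a suppressor of cytokine signalling, measured 350.1 in naive and 827 in memory cells against 11617 in control, 21662 in Rap and 11256 in TOFA effectors (13.6-fold). Il12rb1, a chain of the IL-12 receptor, stood at under 42.8 and 55.9 in naive and memory cells against 662, 795 and 797 in control, Rap and TOFA effectors (11.9-fold). The Rap array was the highest for Lif, Il2ra and Socs2, and Rap signals lay under control for 6 of the 21 members (median 0.33). Socs3, Stat5b, Il4ra, Il18r1 and Il18rap overlapped between the classes.

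The Th1 and cytotoxic list had 8 of 24 members higher and 1 lower (median 0.52), against 6.0% and 2.95% of all genes. Another 10 overlapped, as did 7746 of all 14406 genes. Lta, lymphotoxin alpha, measured 417 in naive and 335 in memory cells against 10974 in control, 10367 in Rap and 13125 in TOFA effectors (24.8-fold). Ifng, interferon-gamma, stood at under 42.8 and 115 in naive and memory cells and at 4101, 979 and 2301 in control, Rap and TOFA effectors (8.54-fold). Memory cells were thus above naive cells for Ifng but well below the lowest effector signal, that of Rap cells. Runx3, a transcription factor of the Th1 and cytotoxic fates, was 3.12-fold higher, and Eomes, a T-box factor, 2.53-fold, with the highest signal (1947) in Rap cells. Gzma, a granzyme also expressed by NK cells, was 2.59-fold lower, at 844 and 1139 in resting and 233, 326 and 114 in effector cells. Of the 11 CD8 T and NK cell markers, Gzma among them, 7 were lower in effectors without overlap, 2 were higher and 2 overlapped. Among all genes 21.0% were lower and 25.3% higher without overlap. The marker sum of memory cells (26944) came mostly from Tyrobp and Fcgr3. The effector sums (3149 to 5695) came mostly from Klrk1, Eomes and Nkg7, and the naive sum (2939) includes Gzma itself. The part of such cells in the Gzma signal was not tested. Without the naive array 4 members of the Th1 and cytotoxic list were lower. Cxcr3, Cxcr6, Ccl3, Ccl4, Ccl5, Prdm1 and Nkg7 were among the overlapping members.

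Of 20 costimulatory and inhibitory receptors and ligands, 7 were higher and none lower (median 0.38), against 6.0% and 2.95% of all genes. Tnfrsf4 (OX40), a costimulatory receptor, measured 711 in naive and 585 in memory cells against 8410.2 in control, 6344 in Rap and 8385 in TOFA effectors (8.92-fold). Icos stood at 793 and 1799 in naive and memory cells against 10932, 10609.9 and 10274 (5.71-fold), nearly equal among effectors. Tnfrsf18 (GITR) was 3.50-fold higher and Lag3, an inhibitory receptor, at least 3.53-fold, its signals of 215, 283 and 151 being low enough that the fold was 1.01 with the floor at the 60th percentile. Ctla4, Tnfsf11 and Tnfrsf9 were the other members higher in all pairs, and Pdcd1 and Havcr2 overlapped. Without the naive array 2 members were lower.

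Chromatin genes linked to DNA copying were also higher. Of 15 genes of DNA methylation and Polycomb, 7 were higher and none lower (median 0.70), against 6.0% and 2.95% of all genes. Ezh2, the methyltransferase of Polycomb repressive complex 2, measured 1260.2 in naive and 1084 in memory cells against 7369 in control, 8973 in Rap and 8273 in TOFA effectors (5.85-fold). Hells, a chromatin remodeler needed for DNA methylation, was 8.15-fold higher, and Hmgb2 4.58-fold. The de novo methyltransferases Dnmt3a and Dnmt3b overlapped, as did Tet1 and Tet2. In the BCL2 family 1 of 14 members, Bnip3, already described, was higher in all pairs and none lower, near the 6.0% and 2.95% of all genes. Bcl2, an inhibitor of apoptosis, measured 7709.5 and 6852 in naive and memory cells against 13924, 15349.9 and 14529.9 (1.81-fold higher). Bad and Bcl2l1 were 1.92-fold and 1.58-fold higher, and without the memory array 5 members of the family were past 2-fold.

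On the lower side, the 14 genes furthest apart included Jchain and Cd79b of the B cell list, S100a8 and S100a9 of the neutrophil list and Lyz2 of the macrophage list, beside a pair of immunoglobulin variable region genes. Jchain, the joining chain of secreted antibodies, measured 7064 in naive and 8532 in memory cells against under 42.8 in control, 49.7 in Rap and under 42.8 in TOFA effectors (142-fold lower). The variable region genes Igkv8-30 and Ighv14-2 were 43.2-fold and at least 29.7-fold lower, Cd79b, of the B cell receptor, 9.43-fold, and Ighm, the immunoglobulin mu chain, 15.1-fold, or 1.91-fold when its probe sets were averaged. The neutrophil calcium-binding genes S100a8 (at least 68.2-fold lower) and S100a9 (at least 39.6-fold) were under 42.8 in all effectors. S100a8 had 2916 in naive and 6829 in memory cells, and S100a9 1693 in naive and 4231 in memory cells. Lyz2, a lysozyme of macrophages and neutrophils, stood at 809 and 14711 against under 42.8 (at least 18.9-fold). Of the marker lists, 16 of 19 B cell, 6 of 12 neutrophil, 4 of 11 CD8 T and NK cell and 3 of 19 macrophage and monocyte markers were at least 2-fold lower in all pairs, against 2.95% of all genes. With the floor at the 20th percentile 6 macrophage markers were lower, and with the floor at the 60th percentile 3 neutrophil and 2 CD8 T and NK cell markers. Another 2 CD8 T and NK cell markers were higher, Eomes and Klrk1, an activating receptor of NK cells, with 63.6 in naive and 668 in memory cells against 1486 in control, 1686 in Rap and 1372 in TOFA effectors (2.05-fold). Of the 19 macrophage markers 11 overlapped, with naive cells at the floor for 8, and without the naive array 18 were lower. Without the naive array 7 CD8 T and NK cell markers were also lower. None of the 7 erythroid markers was lower in all pairs, and 5 were without the naive array.

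Members of these marker lists differed in how far naive cells shared their signal. Lyz1 was at least 48.02-fold lower, with 2053 in naive and 22251 in memory cells, yet overlapped without the probe sets that can match several transcripts. Tyrobp, a signalling adaptor of NK and myeloid cells, stood at 344 and 15384 against under 42.8 in all effectors (at least 8.04-fold), and Fcgr3, an Fc receptor, at 134 and 7524 (at least 3.15-fold). Slc40a1, the iron exporter, measured 76.3 in naive and 35197 in memory cells and was under 42.8 in effectors, a smallest fold of at least 1.78-fold set by naive cells. The neutrophil granule genes Ngp and Camp were 8.30-fold and at least 4.87-fold lower, Camp at 1.40-fold with the floor at the 60th percentile. The MHC class II genes H2-Aa and H2-Eb1 were 6.67-fold and 4.11-fold lower. Within the dendritic cell list Zbtb46 was 2.74-fold lower, or 1.24-fold without the memory array. Batf3, which is also induced in activated T cells, was 12.6-fold higher with 83.98 and 291 against 3674, 4293 and 4919. Car1, an erythroid carbonic anhydrase, had 169.8 and 66.98 in naive and memory cells.

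The other genes furthest lower were on none of these marker lists. Dtx1, a target and regulator of Notch signalling, measured 5791 in naive and 5065 in memory cells against 150.1 in control, 96.8 in Rap and 67.7 in TOFA effectors (33.7-fold). Sgk1, a kinase downstream of PI3K, stood at 9226 and 10788 in naive and memory cells against 954, 419.9 and 529 (9.67-fold), highest among effectors in control cells. Cd55, an inhibitor of complement activation, was 13.1-fold lower, Scg5 16.4-fold, Sidt1 10.04-fold, Rflnb, a filamin-binding protein, 11.1-fold and App, the amyloid precursor protein, 8.31-fold. App had 788 in naive and 5293 in memory cells, so its resting signals were 8.31-fold and more above effectors but far from each other. For Sidt1, Cd55 and Sgk1 naive and memory signals were close together, 1855 and 1916 for Sidt1 and 3067 and 2415 for Cd55.

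Transcription factors and other regulators of quiescence were on the lower side, 7 of 23 past 2-fold in all pairs and none higher (median -0.90). Among all genes 2.95% were lower. Beside Klf2, Ripor2, an inhibitor of RhoA known in resting T cells, measured 14690.5 in naive and 8614 in memory cells against 1311 in control, 1849 in Rap and 1414 in TOFA effectors (4.66-fold). Klf3, a repressor of the same family as KLF2, stood at 13616 and 6079.7 against 771, 2363 and 1107 (2.57-fold) and Klf13 at 5852 and 4401 against 1748, 1999 and 1692 (2.20-fold). Slfn2, Tob1 and Tsc22d3 were the other members lower in all pairs. Foxo1, Lef1 and Ets1 were lower without overlap by less than 2-fold, and Foxp1, Bach2, Satb1 and Id3 were among the 10 that overlapped. Memory signals were under naive signals for 21 of the 23 members (median -0.56), and without the memory array 12 members were lower. The count was 4 on the values as deposited and 2 with scaling to the 75th percentile, and Klf3 and Klf13 passed to 1.93-fold and 1.67-fold under the latter. The summed markers of all 6 other cell types were higher in memory than in naive cells, and their part in this difference between the resting arrays was not tested.

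Receptors and other genes of lymphoid homing and the naive state had 9 of 20 members lower and none higher (median -1.37). Among all genes 2.95% were lower. Without the memory array 13 members were lower. Itga4, the integrin alpha4 chain, measured 3655 in naive and 3537 in memory cells against 356 in control, 433 in Rap and 309 in TOFA effectors (8.16-fold), level between the resting arrays. Il6ra, the IL-6 receptor, stood at 5733 and 2261 in naive and memory cells against 272, 236 and 294 (7.69-fold). Nsg2 was 6.11-fold lower, and Actn1, an actin crosslinker, 4.69-fold. S1pr1, the receptor that leads T cells out of lymph nodes, measured 6196 in naive and 3283 in memory cells against 1004 in control, 752 in Rap and 734 in TOFA effectors (3.27-fold), and Il7r, the receptor for the survival cytokine IL-7, 18697 and 22481 against 8038, 7843 and 7014 (2.33-fold). Ccr9, a gut-homing receptor, was at least 3.82-fold lower on a low signal, and overlapped without the probe sets that can match several transcripts, without naive and without memory cells. Ccr7, Dapl1, Igfbp4, Cxcr4, Cd44 and Ms4a4b overlapped, Dapl1 because memory cells (458) lay with the effectors and far below naive cells (7128). B cells and other spleen cells also express some of these genes, and the part of the B cell marker sums in the result was not tested. Promoter windows were also searched for a FOXO site, GTAAACA. It was found in 1 of 22 windows of the quiescence list (4.55%) and 1 of 16 of the homing list (6.25%). Among all windows the share was 3.09%, and among those of genes compared 2.29%.

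Immediate early genes went both ways, with 6 of 26 lower and 4 higher (median -0.38), against 2.95% and 6.0% of all genes. Without the memory array 9 members were lower. Egr3, a transcription factor of T cell receptor signalling, measured 1295 in naive and 924 in memory cells against 113 in control, 145 in Rap and 101 in TOFA effectors (6.39-fold lower), whereas a further probe set of Egr3 was 0.55 higher in effectors by log2 class means. Btg2, described above, Zfp36, Dusp2, Ier5 and Egr1 were also lower. Atf3, a stress-induced factor, was 4.66-fold higher (54.3 and 118 against 548, 625 and 1013), and Ier3 4.37-fold, with under 42.8 in naive and 309 in memory cells against 6470.0 in control, 1352 in Rap and 3495 in TOFA effectors. Rgs1 and Nr4a2 were the other higher members.

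In the list of the T cell receptor complex and its signalling, 1 of 20 members was at least 2-fold higher and none lower. That is near the 6.0% and 2.95% of all genes. Another 10 overlapped, near the 7746 of all 14406 genes, and 8 were lower and 2 higher without overlap (21.0% and 25.3% of all genes). The member past 2-fold was Themis, a regulator of receptor signalling, at 2.04-fold higher (1802 and 1628 against 5661, 3674 and 3787). Cd3g and Lat were 1.32-fold and 1.30-fold lower, Cd3e 1.17-fold, Cd3d 1.06-fold and Lcp2 1.19-fold, while Cd2 was 1.03-fold higher. Without the memory array 5 members were at least 2-fold lower, as were 895 of all 13909 genes then compared. In the autophagy and lysosome list 1 of 19 members was lower in all pairs and none higher, against 2.95% and 6.0% of all genes. That member, Ctss, a cathepsin also abundant in B cells and macrophages, was 2.60-fold lower, or 1.90-fold with scaling to the 75th percentile. Ctsd, Ctsl and Neu1 were 1.54-fold, 1.79-fold and 1.80-fold lower. Ctss had 10464 in naive and 25405 in memory cells, in the order of the macrophage markers, whose part was not tested. Without the naive array 9 members of the list were lower, as were 1387 of all 14083 genes then compared.

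No interferon stimulated gene separated the classes by 2-fold, against 6.0% of all genes higher and 2.95% lower. Of 24 members 16 overlapped (median -0.55), as did 7746 of all 14406 genes. Rtp4, Ddx58 and Irf9 were lower by smallest folds of 1.56-fold, 1.26-fold and 1.23-fold, and Zbp1 was 1.41-fold higher. TOFA signals lay above control for 23 of the 24 members with a median of 1.77, against 6595 of all 14406 genes. Without the TOFA array 5 members were at least 2-fold lower, against 513 of all 14148 genes then compared. Without the naive array 3 were, against 1387 of 14083. Without the control array 2 were higher, against 933 of 14102. In the list of antigen-experienced T cells memory signals exceeded naive signals for all 20 members (median 2.41), against 6009 of all 14406 genes. In this list 14 members overlapped between the classes, as did 7746 of all 14406 genes. Anxa2 and Vim were higher in all pairs, at 2.39-fold and 2.38-fold, and none was lower. Among all genes 6.0% were higher and 2.95% lower. Vim, an intermediate filament gene, measured 11437 in naive and 15779.7 in memory cells against 43622 in control, 37539 in Rap and 43473 in TOFA effectors, and Lgals1, a galectin, 6457 and 17160.2 against 37266, 33175 and 37821 (1.93-fold). Anxa2 stood at 1.73-fold when its probe sets were averaged. Without the memory array 7 members were higher, and without the naive array 10 were lower. S100a4 was on the lower side at 1.33-fold, with 461 and 4702 in naive and memory cells. Macrophages express several of these genes, and the macrophage marker sum of memory cells went the same way, its part being not tested.

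**Figure D4:**
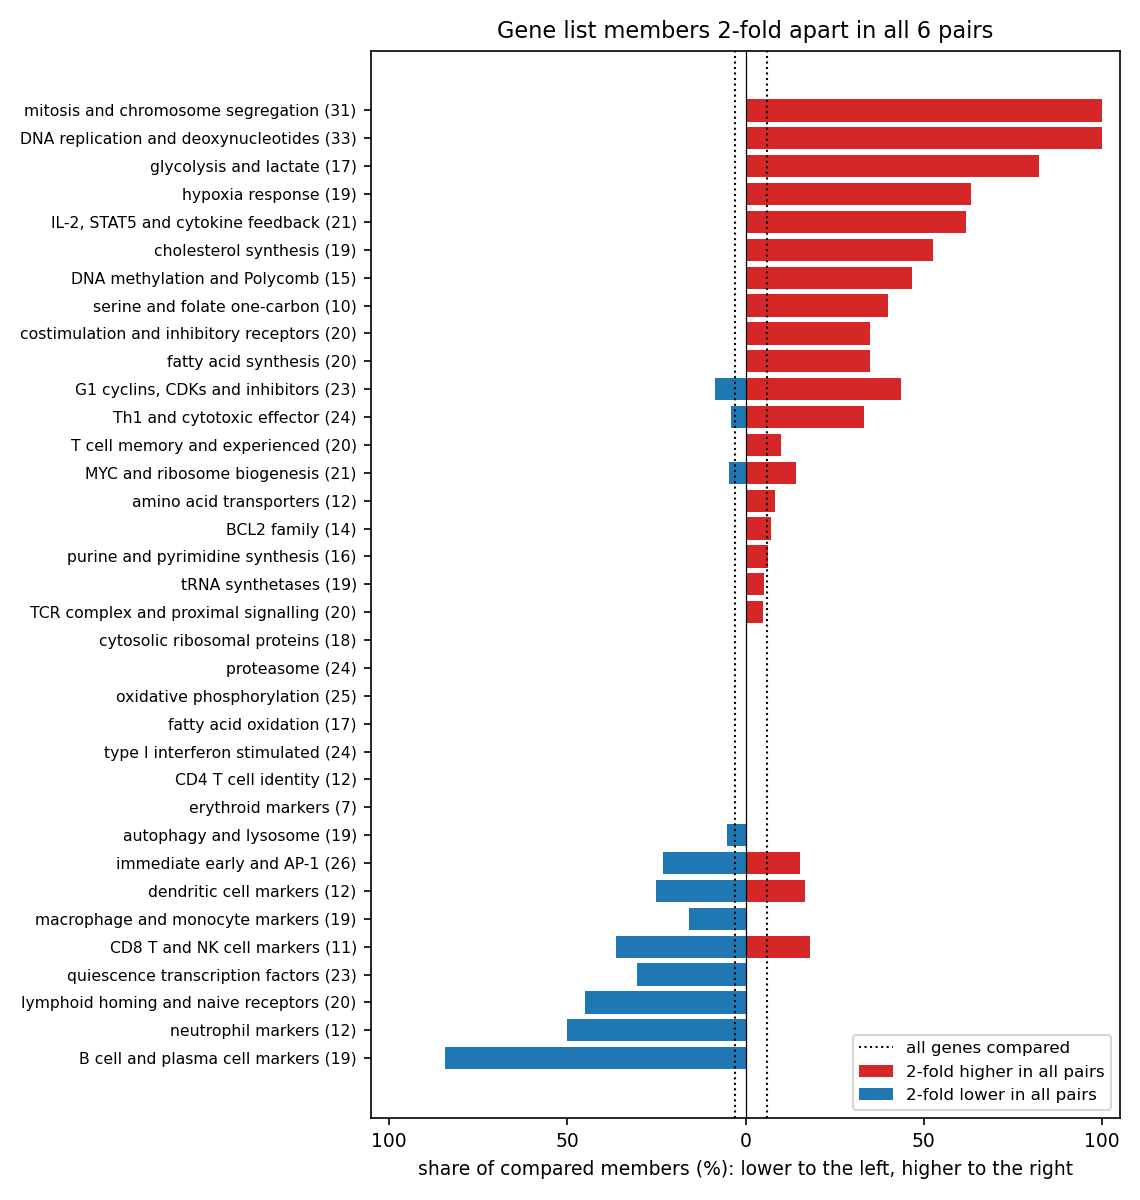
Share of the compared members of 35 gene lists (number in brackets) that were at least 2-fold higher (red, to the right) or lower (blue, to the left) in all 6 pairs of effector and resting arrays, with dotted lines at the shares of all genes, 6.0% higher and 2.95% lower. All 31 mitosis and all 33 replication genes were higher, and 16 of 19 B cell and plasma cell markers were lower.

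In control effector cells 2077 genes were at least 2-fold higher (14.4% of those compared) and 1493 at least 2-fold lower (10.4%) than in naive cells. These genes were split by which of the other arrays also passed 2-fold. All 6 pairs passed 2-fold for 41.6% of the higher and 28.5% of the lower genes. Where all 3 effectors were 2-fold from naive cells, memory cells lay within or beyond the effector range for 184 higher genes (8.86%) and 78 lower genes (5.22%), and short of that range but under 2-fold from the nearest effector for 309 (14.9%) and 371 (24.8%). The inhibitor counts cover only the genes left, where not all 3 effectors were 2-fold from naive cells. Among these, control effectors were 2-fold from both resting arrays but the Rap array alone was not for 118 higher and 32 lower genes. The TOFA array alone was not for 72 and 68, and neither inhibitor array was for 203 and 140. A gene whose inhibitor array was under 2-fold from memory cells only was counted in the memory groups above. The remaining 326 and 379 genes failed in other combinations. These counts share the naive and control arrays and come from single arrays, so dependence on an inhibitor or on the resting array was not tested.

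Genes whose memory signal lay with the effectors included Ctla2a, a cathepsin inhibitor of activated T cells, with 154 in naive and 8208 in memory cells and 11268 in control, 8934 in Rap and 6767 in TOFA effectors. Ifitm2 and Ifitm3, antiviral membrane proteins, had 76.4 and 1688 and 262 and 9989.9 in naive and memory cells, against 1907, 1190.2 and 1233 and 3182, 3626 and 5275 in effectors. Gatm, of creatine synthesis, measured 1928 in memory cells and 688, 434 and 562 in effectors, and was under 42.8 in naive cells. Dst, a cytoskeletal linker, and Fscn1, an actin-bundling protein, had 969.7 and 672 in memory cells, inside their effector ranges. The macrophage marker sum was high in the memory array as these 6 genes were, and its part was not tested. Without the memory array they separate from naive cells by construction. In the lower direction, Dapl1, Pde5a, a phosphodiesterase of cyclic GMP, Amigo2, Airn, Rgmb and Tmie had memory signals within or beyond the effector range, Pde5a at 1281 in naive and 103 in memory cells against 103 in control, 135 in Rap and 89.2 in TOFA effectors.

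Rap cells alone lacked the full difference for F3, the coagulation tissue factor, with 245 in control, under 42.8 in Rap and 126 in TOFA effectors and both resting arrays under 42.8, and for Mpzl2, an adhesion protein, with 189.9, under 42.8 and 243 in the same order. Ndrg4 and Prss35 behaved likewise, at 85.8 and 52.9 in Rap cells against 404 and 454 in control cells. On the lower side Crebl2, Sgsh, a lysosomal sulfatase, Cyp4v3 and Slco2b1, an organic anion transporter, were higher in Rap than in control cells, for Slco2b1 239 against under 42.8. TOFA cells alone lacked it for Serpinb5, a serpin, with 379 in control, 98.8 in Rap and 44.96 in TOFA effectors, and for Cuzd1 (372, 163 and 44.5 in control, Rap and TOFA cells), Dnm1 and Arhgap6. On the lower side they did so for the interferon stimulated genes Ifit1, Ifit3 and Rtp4 and for Ccl5, a chemokine. Ifit1 measured 80.4 in control, 60.3 in Rap and 477 in TOFA effectors, next to 571 in naive and 326 in memory cells, so that the TOFA signal lay among the resting signals. Ccl5 stood at 407, 407 and 1691 in control, Rap and TOFA effectors.

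**Figure D5:**
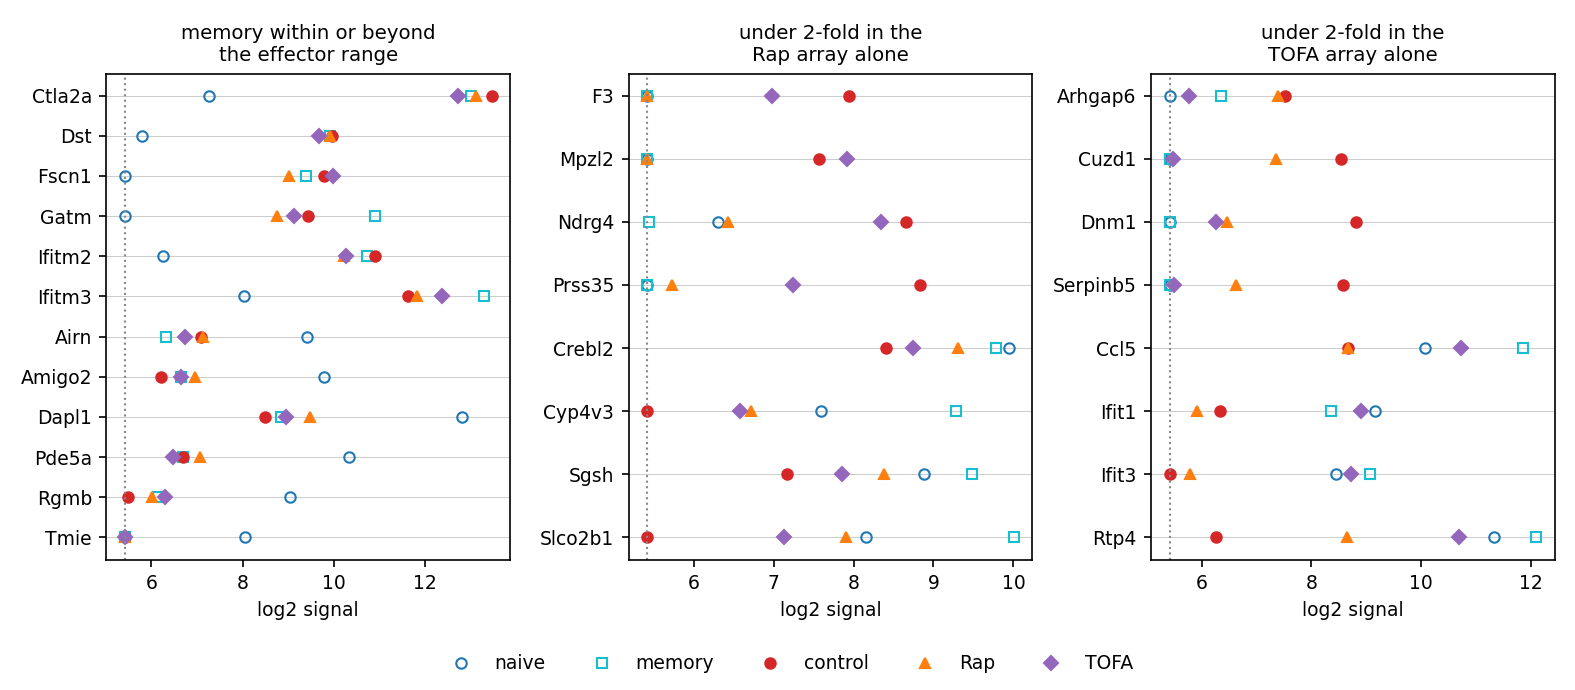
Log2 signal on each array for genes that were at least 2-fold apart between control effector and naive cells but not in all 6 pairs, by the array that broke the separation: memory (left), Rap (middle) and TOFA (right). Open symbols are resting and filled symbols effector arrays, and the dotted line is the floor of 42.8. Gatm at 1928 in memory cells and Ifit1 at 477 in TOFA cells are examples of signals on the side of the other class.

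Among the genes that did separate the classes, the arrays within a class could be set side by side. Of the 865 higher genes, 397 had a higher signal in memory than in naive cells (6009 of all 14406 genes), and the median difference was 0.00 on the log2 scale. TOFA signals were under control for 619 of the 865 (median -0.16) and Rap signals for 503 (median -0.07), against 6248 and 6488 of all 14406 genes. Over the 425 lower genes, Rap and TOFA differed from control by medians of 0.04 and 0.01, and memory from naive by -0.01. Left out in turn, the effector arrays moved the number of higher genes to between 933 and 1029 and of lower genes to between 484 and 513. Without the memory array 1391 genes were higher and 895 lower, and without the naive array 1203 and 1387.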

How the data were processed

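The authors deposited 1 linear intensity per probe set and array, made with GCOS and Affymetrix Expression Console, per the submitters' processing notes. Neither the algorithm nor any version is given in the sources used here. The mean after trimming 2% at each end was 500.0 on every array, a scaling of each array. Of 45101 probe sets, 64 controls were set aside, and the platform annotation of 2016 gave the rest 1 symbol (34945), several (932) or none (9160). The Entrez identifier matched RefSeq for 34741.

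Log2 signals were quantile normalized over the 5 arrays with numpy 2.4.6 and pandas 2.3.3, and raised to a floor at the 40th percentile (42.8). Each of 18193 genes was represented by its probe set with the highest mean, and 14406 genes with an array above the floor were compared. A gene list entry was matched by symbol, with a few renamed genes matched by hand, and 668 of 725 entries were on the array. No test was made, since each condition had 1 array. The procedure was tested on simulated data.

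Genes were named by a fixed rule: 4 markers; the 14 furthest apart in each direction with the higher class at or above the 60th percentile (signal 149), all probe sets going the same way and no predicted name; up to 4 members per list by the size of the smallest fold; and, for genes that did not separate in all pairs, the 6 (memory) or 4 (each inhibitor) furthest apart per direction. Other members are named, without values, to complete short counts. S1pr1, Il7r, Acaca, C1qa and members named to complete counts were chosen after their values were seen. The members, lists and rules were chosen with earlier results of these data known. Alternatives were other scalings, floors and probe set choices, leaving out each array, and a rule on class means. Promoter windows came from RefSeq (GRCm38.p6), which held 11568 of the genes compared.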

Additional observations from a re-analysis of the deposited data

How the results depend on the processing

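The counts of genes at least 2-fold higher or lower in all pairs stayed within 1.5 times of 865 and 425 under the values as deposited, scaling to the 75th percentile, floors at the 20th and 60th percentiles, an added constant, the mean of all probe sets and the removal of probe sets that can match several transcripts. Over these, higher genes ran from 693 to 992 and lower genes from 295 to 537, and no gene counted in one direction was counted in the other. Leaving out 1 array at a time gave 933 to 1391 higher and 484 to 1387 lower genes, 4075 to 4879 genes without overlap on the higher side and 3373 to 4943 on the lower side, and 233 to 300 list members past 2-fold against 223. Fewer pairs have to pass with an array left out. By the difference of class means alone, 1606 genes were higher, 1388 lower, and 340 list members past 2-fold. Of the 865 and 425 genes, 676 and 395 were also counted on the values as deposited, and 695 and 281 with the mean of all probe sets. Of 104 named genes past 2-fold, 86 were so under all 12 alternatives that kept the rule on pairs, and the exceptions are named beside their values or are Zbtb46, Mycn, Ccr9, Klf3, Klf13, Fcgr3, Mthfd2 and Pfas under further settings. For Fcgr3 the classes overlapped with the floor at the 60th percentile. The Lyz1 signal also overlapped without the memory array, where another of its probe sets was the brightest. No paired analysis was possible because each group holds 1 array. Signal near the floor limits what can be said of genes with low signals.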
